A study of Mus musculus with 9 samples.

Results

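The genes described here are the 8 members of the ErbB system whose rows were taken from the deposited count table by symbol: the 4 receptors *Egfr*, *Erbb2*, *Erbb3* and *Erbb4*, the neuregulin ligands *Nrg1*, *Nrg2* and *Nrg4*, and the feedback inhibitor *Errfi1*. All 8 were found among the 55471 gene IDs of the table. RNA of the gastrocnemius, a calf muscle, was sequenced at postnatal day 0 to 1 from 5 *Shank3Δ11(−/−)* mice (KO1 to KO5), which lack exon 11 of *Shank3* on both alleles, and from 4 *Shank3(+/+)* mice (WT1 to WT4). The labels give all mice a C57BL/6 background, and the study's methods name C57BL/6JRj for the matings that gave the *Shank3Δ11(−/−)* mice. No treatment is named in the labels, and each mouse gave 1 library. The study left out KO2 and KO4 for too few reads, so that genotypes were compared between KO1, KO3 and KO5 and the 4 *Shank3(+/+)* mice, while levels and covariation were described over all 9 mice. Labels do not say whether the mice shared litters, so p-values measure the spread between these mice.

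ErbB receptors are receptor tyrosine kinases that pair up when a ligand binds. ErbB2 has no known ligand of its own and ErbB3 has little kinase activity, so that the pair of them forms the working neuregulin receptor in many cells. Neuregulins bind ErbB3 and ErbB4, whereas EGF and its relatives bind EGFR, and Errfi1 (also called Mig6) binds the kinase domain of active receptors and shuts them off. In peripheral nerve and muscle, neuregulin from motor axons is known for keeping Schwann cells alive through ErbB2 and ErbB3, for the formation of muscle spindles, and for acting on synaptic genes of the muscle fibre.

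Library totals ranged from 26444372 to 40471957 counts on genes, with a median of 31435732. KO2 was 8th of the 9 totals and KO4 had the highest, so the table's totals do not show the shortage for which these mice were left out. The share of counts on mitochondrial genes ranged from 3.81% to 7.88%, with the highest share in KO4. *Shank3* itself was counted at 25.7 to 34.8 CPM in the 5 *Shank3Δ11(−/−)* mice and at 32.7 to 38.6 CPM in *Shank3(+/+)*. Between the genotypes of the 7 mice it differed by -0.12 on the log2 scale (standard error 0.11, edgeR FDR = 1.00). Because reads outside the deleted exon are part of this count, it does not check the genotype. The labelled tissue was checked against 8 markers of the muscle fibre, whose summed level was 54670 to 63109 CPM in the 9 mice. Counts on 4 Y-linked genes were present in KO1, KO2, KO4, WT1 and WT2 and close to 0 in KO3, KO5, WT3 and WT4, and the labels give no sex.

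In the GENCODE M21 annotation of mm10, the build to which the authors mapped the reads, the 8 genes lie on 7 chromosomes, and that of *Nrg2* is given with its levels. *Egfr* (ENSMUSG00000020122, chr11:16752203-16918158) and *Erbb2* (ENSMUSG00000062312, chr11:98412470-98437716) lie on the plus strand of chromosome 11. *Erbb3* (ENSMUSG00000018166) lies at chr10:128567523-128589652 and *Erbb4* (ENSMUSG00000062209) at chr1:68032186-69108059, both on the minus strand. The neuregulins also lie on minus strands, *Nrg1* (ENSMUSG00000062991) at chr8:31814551-32884029 and *Nrg4* (ENSMUSG00000032311) at chr9:55220222-55326844. *Errfi1* (ENSMUSG00000028967) lies on the plus strand at chr4:150853919-150868892. Exons of *Nrg4* overlap those of *Fbxo22* and exons of *Erbb2* those of *Mien1*, in each case on the opposite strand. *Fbxo22* had 598 to 844 counts per mouse and *Mien1* 257 to 508. Whether the counting used strand is not stated in the study's methods or the labels, and the counts of *Nrg4* and *Erbb2* carry that uncertainty.

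RefSeq promoter windows of build GRCm38.p6 were matched for *Egfr*, *Erbb2*, *Erbb4*, *Errfi1* and *Nrg4*. The windows of *Erbb2* and *Erbb4* are shown up to the base before the annotated start, because each of these genes belongs to a pair of members whose levels moved together over the mice, *Erbb2* with *Erbb3* and *Erbb4* with *Nrg1*. They lie at chr11:98412234-98412469 on the plus strand and at chr1:69108060-69108309 on the minus strand. Capitals mark the matches to 3 motifs searched on both strands, the E-box CANNTG, the core CCGGAA bound by ETS factors and the GC box GGGCGG, none of which overlapped another.
Erbb2 upstream window: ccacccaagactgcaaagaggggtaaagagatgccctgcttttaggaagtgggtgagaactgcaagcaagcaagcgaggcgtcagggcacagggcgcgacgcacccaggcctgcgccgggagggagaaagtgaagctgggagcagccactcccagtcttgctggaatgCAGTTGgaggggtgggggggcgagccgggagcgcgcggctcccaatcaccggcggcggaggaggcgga
Erbb4 upstream window: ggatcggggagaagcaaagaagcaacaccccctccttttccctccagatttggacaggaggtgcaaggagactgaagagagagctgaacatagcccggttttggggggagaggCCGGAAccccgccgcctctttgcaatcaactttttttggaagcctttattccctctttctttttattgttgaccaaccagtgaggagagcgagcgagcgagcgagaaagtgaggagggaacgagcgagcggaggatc
The *Erbb2* window held 1 E-box, a motif found in 64.3% of the 32851 promoter windows at the same length, and no match to the other motifs, which were found in 10.8% (CCGGAA) and 30.8% (GGGCGG) of windows. The *Erbb4* window held 1 CCGGAA, found in 12.0% of windows at its length, and no E-box or GC box, found in 66.2% and 32.7%. The GC content was 65.7% in the *Erbb2* window, where the median window had 52.1%. It was 54.0% in the *Erbb4* window against a median of 52.4%. A match is a description of these letters and was not tested for binding.

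Per exon length, *Erbb2*, *Errfi1* and *Erbb3* were the most abundant of the 8 transcripts, followed by *Egfr*, and the neuregulins and *Erbb4* were lower than *Egfr* in all 9 mice. Levels per length are given in RPKM, which is TMM-normalised CPM per kilobase of merged exons. *Erbb2* was at 9.88 ± 1.78 RPKM (SD, n = 9), *Errfi1* at 9.70 ± 1.89 and *Erbb3* at 9.65 ± 2.85. These 3 levels did not differ beyond the spread between mice, since *Erbb2* was above *Errfi1* in 5 of 9 mice and *Errfi1* above *Erbb3* in 5 of 9 (2-sided exact sign-flip permutation test of log2 RPKM, adjusted p = 0.797 for each over the 7 neighbouring pairs). *Egfr* was at 4.75 ± 0.567 RPKM and below *Erbb3* in 9 of 9 mice, 1.96-fold on average (exact permutation test, adjusted p = 0.00684). Among ligands, *Nrg4* was at 0.786 ± 0.130 RPKM, below *Egfr* by 6.07-fold and in all 9 mice (exact permutation test, adjusted p = 0.00684). *Erbb4* followed at 0.447 ± 0.0990 RPKM, 1.78-fold below *Nrg4*, and *Nrg2* at 0.224 ± 0.0850 RPKM, 2.09-fold below *Erbb4*, each in 9 of 9 mice (exact permutation test, adjusted p = 0.00684 for both). *Nrg1* was lowest at 0.136 ± 0.0337 RPKM and lay below *Nrg2* in 8 of 9 mice (exact permutation test, adjusted p = 0.0164). When the longest transcript replaced the merged exons, *Nrg1* stood above *Nrg2* and *Errfi1* above *Erbb2*, so these places depend on the length used. With that length *Nrg4* was at 2.26 RPKM (geometric mean), 2.32-fold below *Egfr* and 5.03-fold above *Erbb4*, each in 9 of 9 mice, so the distance of *Nrg4* from its neighbours depends on the length as well. *Erbb3* was then 1.77-fold above *Egfr*, in 8 of 9 mice.

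**Figure D1:**
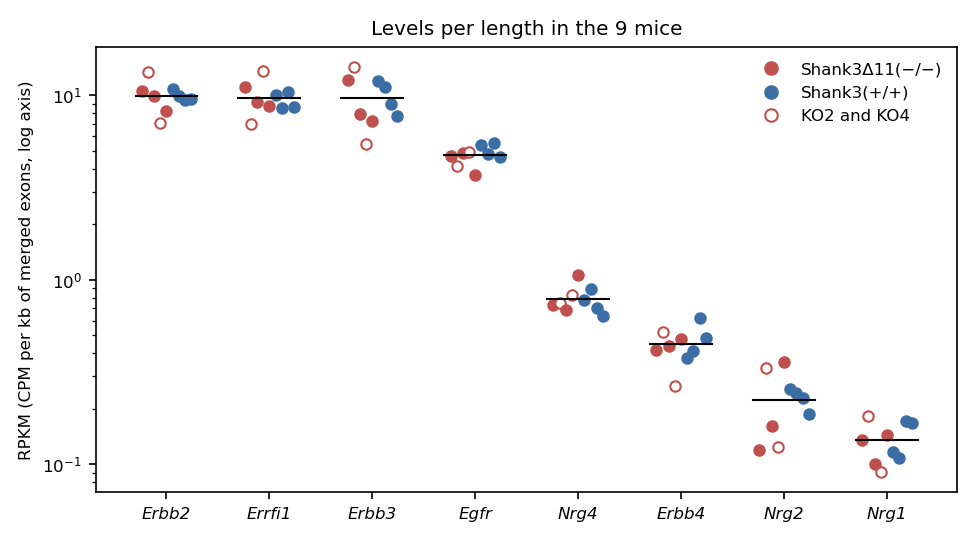
Level per length of the 8 genes in each of the 9 mice, in RPKM on a log axis; filled points are mice of the genotype comparison, open points are KO2 and KO4, and bars are means over 9 mice. The 3 most abundant genes have means from 9.65 to 9.88 RPKM, and Nrg1 the lowest mean, 0.136 RPKM.

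Of the 4 receptors' summed RPKM, *Erbb2* made up 40.1 ± 2.13% (SD, n = 9), *Erbb3* 38.3 ± 4.73%, *Egfr* 19.8 ± 4.08% and *Erbb4* 1.84 ± 0.444%. The share of *Erbb2* was the steadiest in relation to its size, between 37.8% and 42.7% in the 9 mice, while that of *Egfr* ran from 12.9% to 27.8%. Of the neuregulins' summed RPKM, *Nrg4*, a ligand of ErbB4, made up 68.9 ± 6.14%, *Nrg2* 19.1 ± 4.80% and *Nrg1* 12.0 ± 3.16%. With the longest transcript as length these shares were 82.3 ± 4.11%, 8.17 ± 2.34% and 9.52 ± 2.71%, so that *Nrg4* led with either length and the order of *Nrg1* and *Nrg2* did not hold. Levels of a bulk sample cannot tell fewer cells of a type from less RNA per cell.

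The receptors are given next in CPM, a scale that compares mice within a gene. *Egfr*, the receptor for EGF and related ligands, was at 53.3 CPM in KO1, 47.2 in KO2, 55.1 in KO3, 55.7 in KO4 and 41.9 in KO5. In *Shank3(+/+)* it was at 61.2, 54.8, 62.8 and 52.3 CPM in WT1 to WT4. All 5 *Shank3Δ11(−/−)* mice were below the *Shank3(+/+)* mean of 57.7 CPM, but KO1, KO3 and KO4 lay above the lowest *Shank3(+/+)* mouse, WT4. The log2 fold change of *Egfr* was -0.20 (95% interval -0.47 to 0.06) in the 7 mice and -0.18 (-0.40 to 0.05) in the 9 mice, and its p was the smallest of the 8 genes (edgeR, unadjusted p = 0.118 and FDR = 1.00 in the 7 mice; exact permutation test p = 0.229). *Egfr* also varied least, with a coefficient of variation of 11.9% over the 9 mice.

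*Erbb2*, the partner receptor without a ligand, was at 54.8, 70.1, 51.4, 37.0 and 42.6 CPM in KO1 to KO5. In WT1 to WT4 it was at 56.7, 52.0, 48.9 and 49.7 CPM. KO2 was the highest and KO4 the lowest of the 9 mice, and the 4 *Shank3(+/+)* mice lay between them. It differed by -0.06 on the log2 scale (95% interval -0.31 to 0.19) in the 7 mice (edgeR FDR = 1.00), and -0.01 in the 9 mice.

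*Erbb3*, the neuregulin receptor that signals through ErbB2, was at 72.4, 85.4, 47.7, 32.8 and 43.9 CPM in KO1 to KO5. In WT1 to WT4 it was at 72.4, 67.2, 54.2 and 46.4 CPM. It had the widest range of the receptors, 2.61-fold between KO2 and KO4, and all 4 *Shank3(+/+)* mice lay inside it. Its log2 fold change was -0.14 (95% interval -0.56 to 0.29) in the 7 mice (edgeR FDR = 1.00), and without KO1 it was -0.38 (edgeR unadjusted p = 0.0542). Apart from KO4, the mice with Y-linked counts had at least 67.2 CPM of *Erbb3*, and those without had at most 54.2 CPM. The means were 66.0 ± 19.8 CPM (SD, n = 5) with and 48.1 ± 4.40 CPM (SD, n = 4) without Y-linked counts. With genotype in the same fit, the difference was 0.48 on the log2 scale (standard error 0.22, edgeR unadjusted p = 0.0488, FDR = 0.541). In that fit 9.17% of all genes had an unadjusted p below 0.05 and 0.0598% an FDR below 0.05, and of the 8 genes *Erbb3* alone met the unadjusted and 0 the FDR threshold.

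*Erbb4*, the receptor that can act on its own with neuregulins, was counted far less often, with at most 224 counts per mouse. It was at 5.18, 6.43, 5.42, 3.29 and 5.93 CPM in KO1 to KO5 and at 4.68, 5.12, 7.71 and 5.97 CPM in WT1 to WT4. KO4 was again the lowest mouse and WT3 the highest. The log2 fold change was -0.09 (95% interval -0.52 to 0.34) in the 7 mice (edgeR FDR = 1.00), and it turned to 0.07 without WT3.

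Ligands were nearer to the counting limit. *Nrg1*, the neuregulin of motor axons and Schwann cell development, had 33 to 56 counts per mouse, which is 1.41, 1.90, 1.04, 0.940 and 1.50 CPM in KO1 to KO5. In WT1 to WT4 it was at 1.20, 1.12, 1.79 and 1.73 CPM. KO2 was the highest and KO4 the lowest, as for *Erbb2* and *Erbb3*. Its log2 fold change was -0.15 (95% interval -0.74 to 0.44) in the 7 mice (edgeR FDR = 1.00).

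*Nrg2* (ENSMUSG00000060275, chr18:36017652-36197380, minus strand), a close relative of *Nrg1* that binds the same receptors, had 12 to 31 counts per mouse and varied most of the 8 genes, with a coefficient of variation of 38.0%. It was at 0.376 CPM in KO1, 1.05 in KO2, 0.504 in KO3, 0.392 in KO4 and 1.13 in KO5. The 4 *Shank3(+/+)* mice, at 0.801, 0.769, 0.723 and 0.587 CPM, all fell inside the gap between the low and the high *Shank3Δ11(−/−)* mice. The log2 fold change of -0.12 (95% interval -0.97 to 0.72, edgeR FDR = 1.00) therefore averages mice on both sides of *Shank3(+/+)*, and it was -0.71 without KO5 and 0.17 without KO1.

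*Nrg4*, a neuregulin that binds ErbB4, was at 4.45, 4.54, 4.16, 5.01 and 6.49 CPM in KO1 to KO5. In WT1 to WT4 it was at 4.71, 5.44, 4.30 and 3.88 CPM. Only KO5 lay above the *Shank3(+/+)* range. Its log2 fold change was 0.13 (95% interval -0.32 to 0.59, edgeR FDR = 1.00) in the 7 mice and -0.10 without KO5.

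*Errfi1*, the inhibitor that EGF receptor signals induce, was at 39.7, 25.1, 33.0, 48.6 and 31.4 CPM in KO1 to KO5. In WT1 to WT4 it was at 36.0, 30.4, 37.6 and 31.0 CPM. Here KO4 was the highest and KO2 the lowest mouse, the opposite of *Erbb2*, *Erbb3* and *Nrg1*. The log2 fold change was 0.04 (95% interval -0.23 to 0.31, edgeR FDR = 1.00) in the 7 mice.

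**Figure D2:**
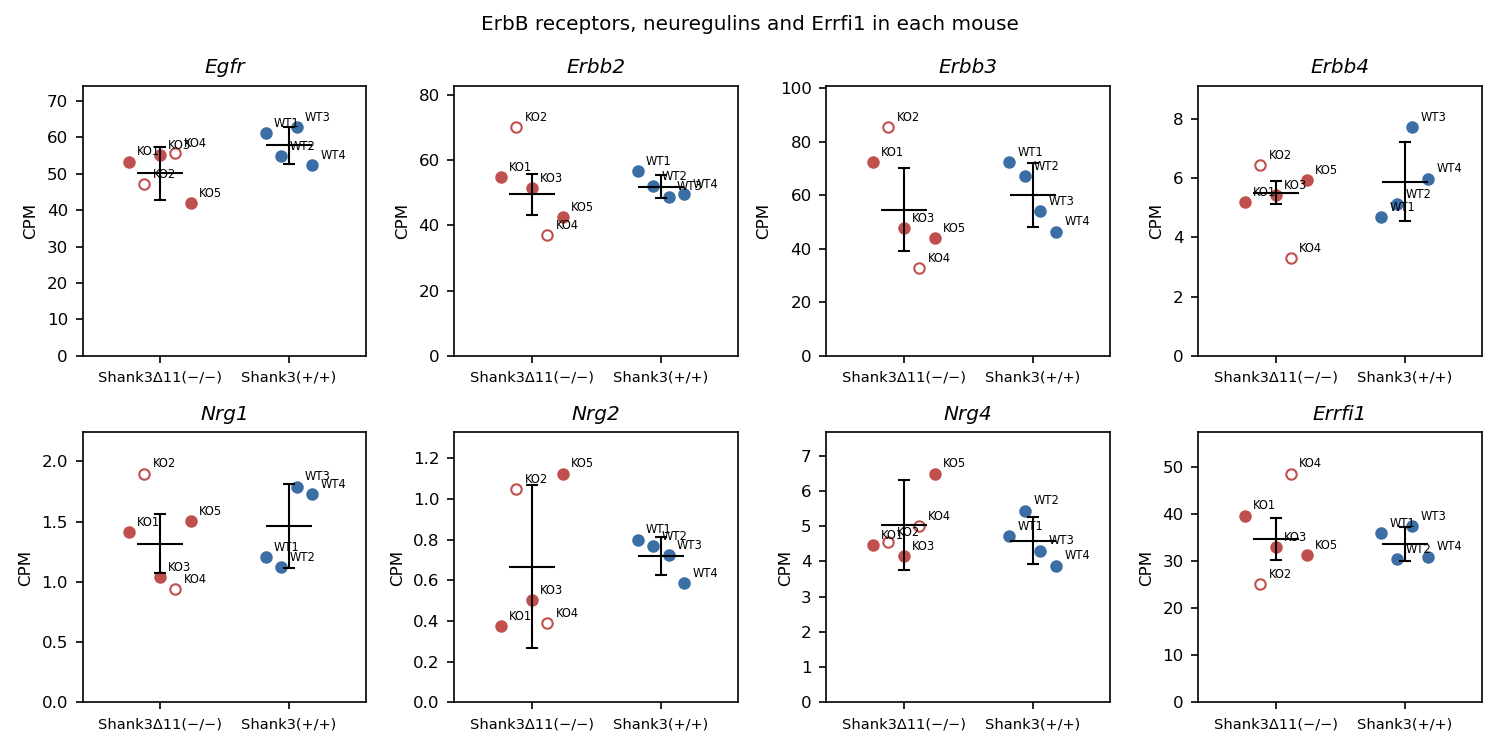
CPM of each gene in each mouse, by genotype, on axes that start at 0; filled points are the 7 mice compared, open points are KO2 and KO4, and bars show the mean ± SD of 3 Shank3Δ11(−/−) and 4 Shank3(+/+) mice. The genotypes overlap for all 8 genes, and KO2 and KO4 mark the ends of the range for Erbb2 and Erbb3.

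No difference between genotypes was detectable in any of the 8 genes. Of the 8, 2 had a higher and 6 a lower estimate in *Shank3Δ11(−/−)*, where 52.2% of all 21809 genes tested had a lower one, and the median log2 fold change was -0.11 against -0.01 over all genes. The median size of the change, whatever its sign, was 0.13 for the 8 genes and 0.10 for all genes. In edgeR 0 of the 8 passed the study's criterion of p below 0.05 with FDR below 25%, 0 reached an unadjusted p below 0.05, and the same counts of 0 were found with DESeq2 and limma-voom. Over all genes tested the criterion called 0.00% in edgeR, an unadjusted p below 0.05 was reached by 2.08% (453 genes), and DESeq2 called 6 genes. The groups overlapped for each of the 8 genes, where they did not for 2.84% of all genes. Exact permutation tests gave p from 0.229 to 0.829, and the smallest p that 3 against 4 mice allow is 0.0286. With all 9 mice 2 of the 8 were again higher and 6 lower, where 49.5% of all genes were lower. An unadjusted p below 0.05 in edgeR was then reached by 0 of the 8 and 2.03% of all genes, and 0 had groups that did not overlap, against 0.704% of all genes. The intervals bound what these data leave possible. For *Erbb2* a fold between 0.808 and 1.14 lay inside the 95% interval, for *Egfr* between 0.722 and 1.04, and for *Nrg2*, with the fewest counts, between 0.510 and 1.65.

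**Figure D3:**
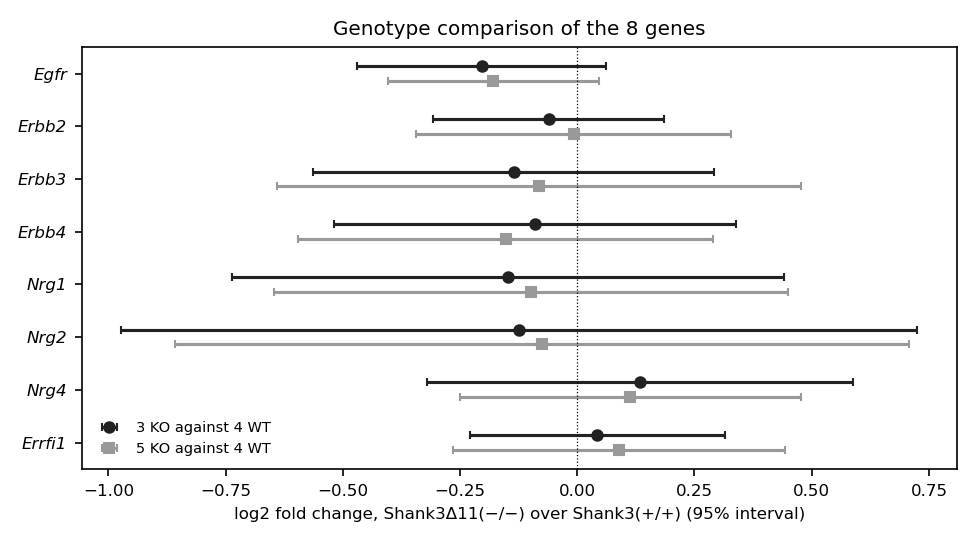
Log2 fold change of Shank3Δ11(−/−) over Shank3(+/+) with its 95% interval from edgeR, for 3 against 4 mice (circles) and 5 against 4 mice (squares). All 16 intervals include 0, and those of Nrg2 are the widest in both comparisons.

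The receptors *Erbb2* and *Erbb3* moved together over the mice, and so did *Erbb4* and *Nrg1*. For *Erbb2* and *Erbb3*, Pearson's r of log2 CPM over the 9 mice was 0.92 (exact permutation p = 1.54e-04, adjusted p = 0.00432 over the 28 pairs of the 8 genes) and Spearman's rho was 0.93 (exact permutation p = 7.5e-04, adjusted p = 0.0210). The 2 mice farthest from the median of *Erbb2* were KO2 and KO4, which are also the mice the study left out. Without them r was 0.81 (exact permutation p = 0.0105, n = 7), and the adjusted p over the 28 pairs was 0.294. Leaving out any 1 mouse kept r between 0.86 and 0.94. It was 0.92 after removing the genotype means and 0.93 after removing the level of Y-linked genes. The mice with and without Y-linked counts number 5 and 4, too few for an r within each. Among 17980 genes with a mean of at least 1 CPM, *Erbb3* was 63rd in its correlation with *Erbb2* (0.350% of genes at or above it) and *Erbb2* was 167th for *Erbb3* (0.923%), so that other transcripts followed each of them more closely.

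*Erbb4* and *Nrg1*, a receptor and its ligand, had r = 0.83 over the 9 mice (exact permutation p = 0.00173, adjusted p = 0.0242) and rho = 0.87 (exact permutation p = 0.00451, adjusted p = 0.0631). Without WT3 and KO4, the mice farthest from the median of *Erbb4*, r was 0.78 (exact permutation p = 0.0421, adjusted p = 0.435, n = 7). Without KO2 and KO4 it was 0.75 (exact permutation p = 0.0379, adjusted p = 0.531, n = 7). Leaving out 1 mouse gave r from 0.77 to 0.91, and the adjusted p was no longer below 0.05 without KO2, KO4, KO5, WT3 or WT4. Among the 17980 genes, *Nrg1* was 93rd in its correlation with *Erbb4* (0.517% of genes at or above it) and *Erbb4* was 86th for *Nrg1* (0.478%). *Nrg1* rests on 33 to 56 counts per mouse.

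*Erbb3* and *Erbb4*, both neuregulin receptors, had r = 0.39 over the 9 mice (exact permutation p = 0.299, adjusted p = 0.493; rho = 0.17 with permutation p = 0.678). After removing the level of Y-linked genes r was 0.90 (permutation of residuals p = 0.00129), and this pair then passed the adjusted threshold beside the 2 above. That p is approximate, because residuals of a fit are not freely exchangeable between mice. Without KO2 and KO4, and with no such removal, r was -0.54 (exact permutation p = 0.205, n = 7).

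**Figure D4:**
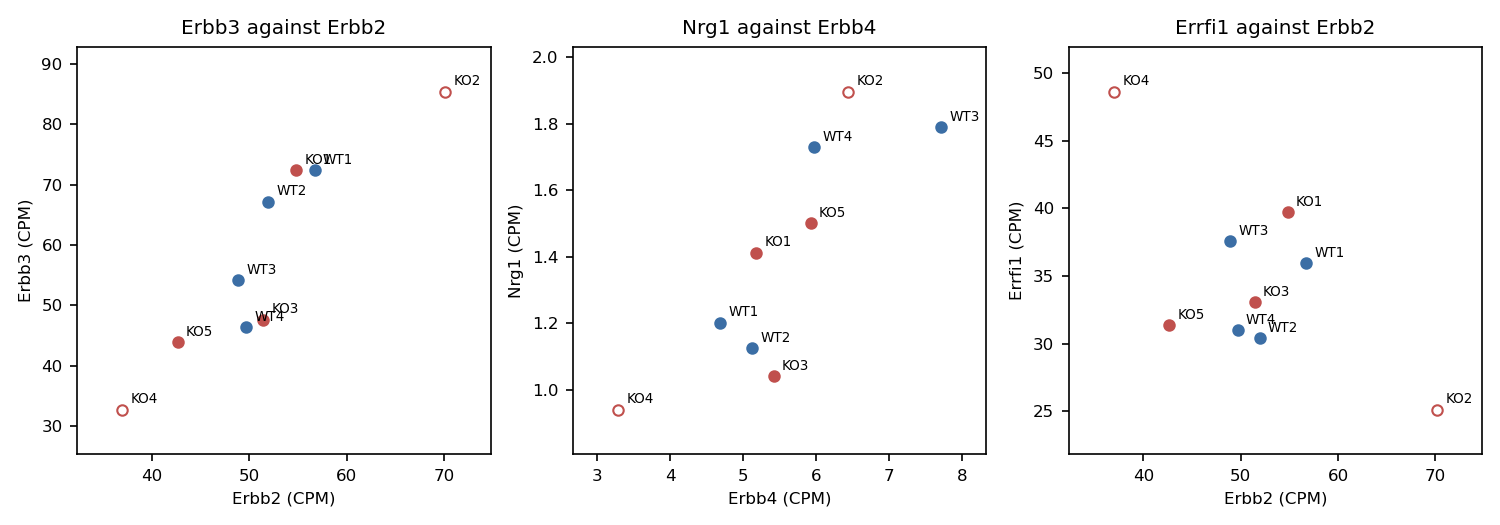
CPM of 3 pairs of genes, 1 point per mouse; open points are KO2 and KO4. Erbb3 rises with Erbb2 (r = 0.92) and Nrg1 with Erbb4 (r = 0.83), while the fall of Errfi1 with Erbb2 (r = -0.68) is spanned by KO2 and KO4.

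*Errfi1* was negatively correlated with 6 of the other 7 genes, and without KO2 and KO4 the sign turned for 4 of these 6, *Erbb2*, *Erbb3*, *Erbb4* and *Nrg1*. Its r was -0.73 with *Nrg2* (exact permutation p = 0.0235, adjusted p = 0.219, rho = -0.65 with permutation p = 0.0666) and -0.68 with *Erbb2* (exact permutation p = 0.0463, adjusted p = 0.324, rho = -0.42 with permutation p = 0.270). Without KO2 and KO4 the r with *Erbb2* was 0.48 (exact permutation p = 0.289, n = 7) and that with *Erbb3* went from -0.53 to 0.53 (exact permutation p = 0.206, n = 7). *Egfr* was the one gene with a positive r to *Errfi1*, 0.50 (exact permutation p = 0.166, rho = 0.60 with permutation p = 0.0968). The r of *Egfr* with *Erbb2* was -0.0044 and that with *Erbb3* 0.06 (exact permutation p = 0.991 and 0.888; rho = -0.12 and -0.03 with permutation p = 0.776 and 0.948). Of the 28 pairs, 2 had an adjusted p below 0.05 and 4 an unadjusted one, and with the 7 mice of the genotype comparison the counts were 0 and 2.

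**Figure D5:**
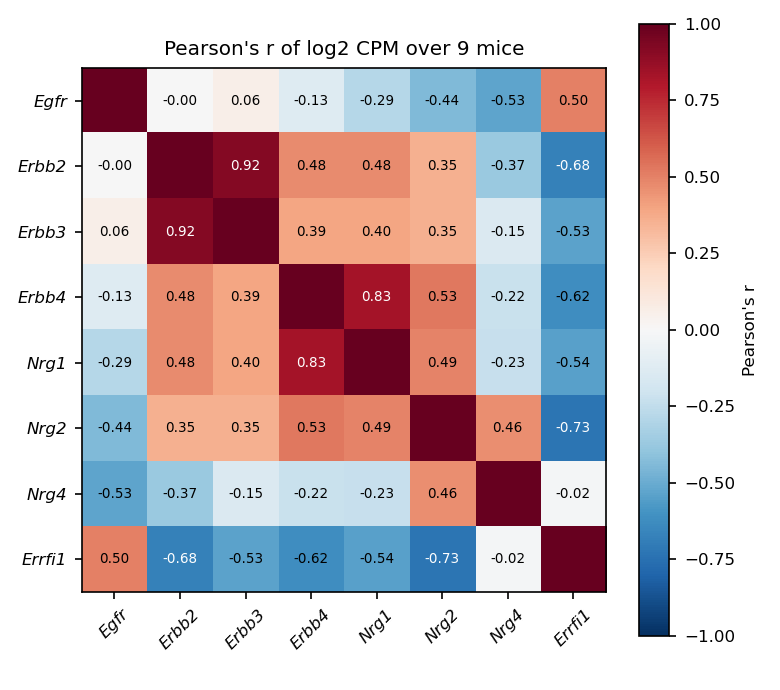
Pearson's r of log2 CPM over the 9 mice for every pair of the 8 genes; red is positive, blue negative. The largest positive values are 0.92 (Erbb2 with Erbb3) and 0.83 (Erbb4 with Nrg1), and the column of Errfi1 is negative except for Egfr.

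The transcripts most like each gene over the 9 mice were looked up among the 17980 genes, as a description without a test. *Erbb3* was most like *Zfp84* (r = 0.99), *6330403L08Rik* (0.98) and *Tmem129* (0.98), and 309 genes, or 1.72%, reached an r of 0.9 with it. *Erbb2* was most like *Mier2*, *Anks1* and *Fxr2* (0.97 each), and 120 genes reached 0.9. For *Erbb4* the leading genes were *Tmod1*, which encodes the tropomodulin that caps thin filaments (r = 0.96), *Kdm5c* (0.94) and *Gm14038* (0.93). *Nrg1* was most like *Dusp4*, a phosphatase that switches off MAP kinases and is among the ErbB restraint genes below (0.96), then *Gm5917* (0.95) and *Gm11201* (0.93). *Dusp4* was at 3.81 CPM in KO4, its lowest mouse, and at 9.82 CPM in KO2, its highest, as *Nrg1* was. *Nrg4* was most like *Yod1* and *Fbxw7*, a ubiquitin ligase subunit (0.96 each), and *Gm6740* (0.95). *Errfi1* was most like *Birc3*, an inhibitor of apoptosis (0.97), *Manba* and *Rnft1* (0.94 each). *Egfr* had the fewest like genes, led by *Mr1* (0.93), *Tmem67* and *Krr1* (0.91 each), and 4 genes at 0.9 or above. *Nrg2* was below 1 CPM on average and was left out.

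The other genes of the pathway showed no more calls than the 8. Of 84 genes in 6 lists, 79 were tested, 28 had a higher and 51 a lower estimate in *Shank3Δ11(−/−)*, and their median log2 fold change was -0.04. In edgeR 0 were called, 1 had an unadjusted p below 0.05, and the same counts came from DESeq2 and limma-voom. That gene was *Ache*, the acetylcholinesterase of the neuromuscular junction. It was at 83.2, 128, 70.5, 64.0 and 71.1 CPM in KO1 to KO5 and at 90.5, 104, 90.6 and 99.8 CPM in WT1 to WT4. KO1, KO3 and KO5 were below every *Shank3(+/+)* mouse, and KO2 was above all of them. The log2 fold change was -0.36 (standard error 0.11, edgeR unadjusted p = 0.00653, FDR = 1.00) in the 7 mice and -0.20 (edgeR unadjusted p = 0.276) in the 9 mice.

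Of the 8 further ErbB ligands, *Egf*, *Tgfa*, *Hbegf* and *Btc* had enough counts to be tested, and 0 of the 4 had an unadjusted p below 0.05 in edgeR. *Egf*, a ligand of EGFR, averaged 15.8 ± 2.82 CPM (SD) in the 3 *Shank3Δ11(−/−)* mice. In the 4 *Shank3(+/+)* mice it averaged 13.2 ± 2.07 CPM (SD), and the log2 fold change was 0.26. *Tgfa*, another EGFR ligand, had 16 to 40 counts per mouse and a log2 fold change of 0.56 (standard error 0.32, edgeR unadjusted p = 0.107, FDR = 1.00). *Hbegf*, which binds EGFR and ErbB4, had -0.26, with 11.2 to 20.0 CPM over the 9 mice, and *Btc*, which binds the same receptors, had -0.01 with 10 to 32 counts per mouse. *Areg*, *Ereg* and *Epgn* stayed at or below 38 counts and *Nrg3* at or below 2 counts in every mouse, and these 4 were not tested. Per merged exon length, *Hbegf* was at 2.96 and *Egf* at 1.26 RPKM on average over the 9 mice.

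Among the 28 adaptors and kinases downstream of the receptors, 12 estimates lay above 0 and 16 below it (median -0.01 on the log2 scale), and 0 of them reached an unadjusted p below 0.05 by edgeR. Of 19 genes that restrain or degrade the receptors, such as the LRIG and Sprouty families, 7 were higher and 12 lower (median -0.05, 0 with an unadjusted p below 0.05). The 6 genes of ligand shedding, the proteases that release neuregulins and EGF ligands from the membrane and their partners, were 3 higher and 3 lower (median -0.02, again 0). Of the 9 transcription factors tested that ErbB or ERK signals induce, 2 were higher and 7 lower (median -0.19, 0 with an unadjusted p below 0.05). Of the 13 genes of the neuromuscular junction, 2 were higher and 11 lower (median -0.10), and *Ache* was the 1 with an unadjusted p below 0.05. Over all genes tested 52.2% had a lower estimate, and 0.917% had a lower estimate with an unadjusted p below 0.05 in edgeR.

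Markers of other cells in the muscle were measured beside the 8 genes, since ErbB receptors are expressed by several cell types. The 11 Schwann cell markers summed to 472 to 802 CPM in the 5 *Shank3Δ11(−/−)* mice and 397 to 546 CPM in *Shank3(+/+)*. Of them *Mbp*, which encodes myelin basic protein, had a higher estimate in the 7 mice, with a log2 fold change of 1.17 (edgeR unadjusted p = 0.0336, FDR = 1.00). KO5 had 93.5 CPM of *Mbp*, against 15.3 to 44.1 CPM in the other 8 mice. *Chat*, the defining enzyme of motor neurons, had 0 counts in every mouse, and the 6 neuron and axon markers summed to 3.13 to 5.95 CPM. Of the 74 markers tested over 12 cell types, 9 were higher and 1 lower at an unadjusted p below 0.05, where 1.16% and 0.917% of all genes were, and edgeR called 0. Beside *Mbp*, these included the adipocyte genes *Cfd*, *Fabp4*, *Plin1* and *Adipoq*, 2 of the 8 fibroblast markers, *Ly6a* and *Dpt*, and *Myod1* of myoblasts. Of the 8 fibroblast markers 5 had a higher and 3 a lower estimate, with a median log2 fold change of 0.02. *Myod1* was lower, with a log2 fold change of -0.41 in the 7 mice (edgeR unadjusted p = 0.0109, FDR = 1.00) and -0.25 in the 9 mice (edgeR unadjusted p = 0.265). DESeq2 called 1 of these 74 markers, *Cfd*, which was at 143 CPM in KO5 and at most 9.03 CPM in the other mice.

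Over the 9 mice, 1 of the 96 correlations of the 8 genes with these 12 summed marker levels had an adjusted p below 0.05, and 16 had an unadjusted one. It was that of *Nrg2* with the red cell markers, r = -0.84 (exact permutation p = 4.41e-05, adjusted p = 0.00423) and rho = -0.93 (exact permutation p = 7.5e-04, adjusted p = 0.0720). Without KO2 and KO4 it was r = -0.90 (exact permutation p = 9.92e-04, n = 7). The red cell sum ranged from 904 CPM in KO5, the mouse with the most *Nrg2*, to 4365 CPM in KO1, the mouse with the least. *Egfr* with the Schwann cell sum had r = -0.79 (exact permutation p = 0.0161, adjusted p = 0.220; rho = -0.77). In the 7 mice r was -0.82 (exact permutation p = 0.0300), and without KO5 and WT2, the 2 mice farthest from the median of that sum, it was -0.65 (exact permutation p = 0.119, n = 7). *Erbb2* and *Erbb3* with the endothelial sum had r = -0.85 and -0.78 (exact permutation p = 0.00535 and 0.0124, adjusted p = 0.171 and 0.220), and without KO2 and KO4 r was -0.43 and -0.40. With the satellite cell and myoblast sum they had r = 0.77 and 0.76 (exact permutation p = 0.0145 and 0.0184, adjusted p = 0.220 for both), and without KO2 and KO4 r was 0.55 and 0.50. Without KO4 and KO5, the 2 mice farthest from the median of that sum, it was 0.37 and 0.42. *Errfi1* with the cartilage and tendon sum had r = 0.86 (exact permutation p = 0.00196, adjusted p = 0.0939), and the sum was 460.2 CPM in KO4 and 192 to 281 CPM in the other mice. Without KO2 and KO4 that r was 0.54 (exact permutation p = 0.214, n = 7), and without KO4 and WT1, the 2 farthest from the median of the sum, it was 0.80 (exact permutation p = 0.0312, n = 7). The part of these marker levels in the levels of the 8 genes was not tested.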

How the data were processed

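Gastrocnemius RNA was sequenced from 9 mice. Per the study's methods, the authors mapped reads with HISAT2 to mm10 and counted them per gene with featureCounts; the deposited values are raw counts. The annotation release and strandedness are not given there or in the labels. Counts were analysed with edgeR 4.0.16 in R 4.3.3 (TMM, filterByExpr with minimum count 10 and minimum total 15, robust quasi-likelihood test, Benjamini-Hochberg adjustment over all genes tested), on the 7 mice the study used. CPM and log2 CPM (prior count 2) used all 9 mice, and exon lengths came from GENCODE M21. Single genes were also compared by 2-sided exact permutation of log2 CPM, and correlations by exact permutation of mice. The genes named are the 8 members, list genes with unadjusted p below 0.05 (at most 3 per direction), all further ligands, defining markers and the 3 genes most like each member, with a 4th adipocyte gene and *Dusp4* values added after seeing the data. The 8 genes and all lists were chosen with earlier results of these data known. Alternatives were all 9 mice, other filters, normalisations and covariates, DESeq2 1.42.0, limma-voom (limma 3.58.1), a replicate block and each mouse left out. Steps were tested on simulated data. Precision is limited by the counts behind each value, given in the text. A few single genes that the naming rule selects are left out of the text.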

Additional observations from a re-analysis of the deposited data

Results flagged for a closer look

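Of 56 groups of 4 or 5 mice examined, 7 held a mouse far from the rest of its group by Dixon's criterion, where chance alone gives about 1 in 20. All 7 were among the *Shank3Δ11(−/−)* mice, and the levels of the 8 ErbB genes gave none of them. KO4, which had the highest *Errfi1* and the lowest *Erbb2* and *Erbb3*, stood apart in the EGFR and ErbB4 ligands *Hbegf*, at 20.0 CPM against 11.2 to 13.6 CPM in the other 4 mice and up to 18.0 CPM in *Shank3(+/+)*, and *Ereg*, at 0.992 CPM against 0.0315 to 0.188 CPM. It also stood apart in the summed fibroblast markers, at 14526 CPM against 7877 to 9514 CPM, and in the summed cartilage and tendon markers, at 460.2 CPM against 192 to 236 CPM. KO5, which had the highest *Nrg2* and *Nrg4* and the lowest *Egfr*, stood apart in the summed Schwann cell markers, at 802 CPM against 472 to 529.7 CPM, and in the summed adipocyte markers, at 1173 CPM against 229.7 to 461 CPM. KO1, which had the lowest *Nrg2*, stood apart in the summed red cell markers, at 4365 CPM against 904 to 1635 CPM. The part of these levels in those of the ErbB genes was not tested.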

How the results depend on the processing

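The absence of calls among the 8 genes held under every alternative run, and *Egfr* stayed lower in *Shank3Δ11(−/−)* in all of them (log2 fold change -0.28 to -0.10). The signs of the small estimates did not hold. With the replicate number as a block, the log2 fold change was 0.013 (7 mice) and 0.017 (9 mice) for *Erbb2*, and -0.065 for *Nrg4* and -0.019 for *Errfi1* (7 mice). It was -0.79 and -0.38 for *Nrg2*, -0.27 and -0.16 for *Nrg1* and -0.19 and -0.21 for *Erbb4* (7 and 9 mice), with no unadjusted p below 0.05. The labels do not say that a shared number marks a pair: deviations of same-numbered mice correlated at 0.373, 0.0524, 0.357 and 0.101 for numbers 1 to 4, and KO1 with WT1 and KO3 with WT3 were each other's best match, a hint from the data only. Within the mice with Y-linked counts, a split chosen after seeing the data, the difference was 0.015 for *Erbb2*, 0.055 for *Erbb3*, 0.079 for *Erbb4*, 0.27 for *Nrg1* and -0.18 for *Nrg4*, from 1 against 2 mice and with no test. With KO2 and KO4 included, so that 3 are set against 2, it was -0.056, -0.25, -0.032, 0.22 and -0.12 for these 5 genes. For *Nrg2* it was -0.95 and -0.48, and for *Errfi1* 0.26 and 0.14. Within those without, it was -0.073 for *Erbb2*, -0.13 for *Erbb3*, -0.26 for *Erbb4*, -0.47 for *Nrg1*, 0.34 for *Nrg4*, 0.20 for *Nrg2* and -0.083 for *Errfi1*, from 2 against 2 mice. Leaving out 1 mouse gave -0.13 to 0.028 for *Erbb2*, -0.38 to -0.01 for *Erbb3*, -0.18 to 0.074 for *Erbb4*, -0.26 to 0.00098 for *Nrg1*, -0.71 to 0.17 for *Nrg2*, -0.10 to 0.26 for *Nrg4* and -0.060 to 0.10 for *Errfi1*. Over all genes, 0 calls in edgeR became 1 without a filter, 6 with DESeq2, 9 and 2 with the block (7 and 9 mice), 1 with the Y-linked level as covariate (7 mice) and 0 to 15 with 1 mouse left out (15 without KO1), and the 453 genes with an unadjusted p below 0.05 became 972 without a filter, 844 and 452 with the block (7 and 9 mice) and 224 (without KO5) to 968 (without KO1). For pathway genes with an unadjusted p below 0.05, 1 became 0 with 9 mice, alone or with the block or the Y-linked covariate, 2 with library totals and with the Y-linked covariate in 7 mice, and 1 to 7 with 1 mouse left out (6 without KO1, 7 without KO3). For markers, 10 became 5 with 9 mice, 6 with limma-voom, 8 and 3 with the block (7 and 9 mice) and 5 with the Y-linked covariate in 9 mice, and 4 to 18 with 1 mouse left out (18 without KO3). Of the 2 correlated pairs, 1 remained past the adjusted threshold with Spearman and after removing genotype means, 0 without the 2 farthest mice and in the 7 mice, and 1 to 2 with 1 mouse left out. After removing the level of Y-linked genes 3 pairs passed, these 2 and *Erbb3* with *Erbb4*. Permutation p-values on residuals, from genotype means or from the Y-linked level, are approximate. *Erbb2* with *Erbb3* fell to 0.81 without KO2 and KO4, which are also its 2 farthest mice. *Erbb4* with *Nrg1* fell short of the threshold with Spearman (0.87), genotype residuals (0.82), without the 2 farthest mice (0.78), in the 7 mice (0.75) and without KO2, KO4, KO5, WT3 or WT4 (0.77 to 0.84, where leaving out any 1 mouse gave 0.77 to 0.91). *Nrg2* with red cell markers fell short with the same 4 settings, at -0.93, -0.83, -0.94 and -0.90, leaving 0 of 96 pairs. With the longest transcript as length, 4 of the 8 genes kept their place. The cause of these differences was not tested.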
